A study of Mus musculus with 2 samples.

Results

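Myostatin, activin and insulin-like growth factor (IGF) signals control the size of skeletal muscle, and 10 genes of these pathways were followed in the gastrocnemius (GAS), a calf muscle, of *Gde5* skKO and WT mice. The genes are the TGF-beta family ligands Mstn, Inhba and Gdf15, the receptor gene Acvr2b, the secreted proteins Fst and Fstl1, the ligands Igf1 and Igf2, and the IGF binding protein genes Igfbp4 and Igfbp5. A probe was taken when its listed gene name was one of these symbols or another name of the gene, control probes left out. Mstn was found in this way under its older name Gdf8. This gave 15 of 41174 probes, for 10 of the 27080 genes on the arrays. Of the 10 genes, 8 had enough signal to be tested, meaning that on each array WT, *Gde5* skKO or both were well above background, and Gdf15 and Igfbp4 did not.

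Gpcpd1, here called *Gde5*, encodes an enzyme that hydrolyzes glycerophosphocholine, and the study compared muscle with and without it. The mice were C57BL/6 males of 15 weeks on a normal diet. In *Gde5* skKO mice (HSA-Cre;*Gde5* flox/flox), Cre under the human skeletal actin promoter removes the floxed part of the gene in muscle fibres, and other cells of the muscle keep the gene. The control RNA is labelled wild-type, and the methods name *Gde5* flox/flox littermates as the controls in other tests of these mice, so no array holds a group with Cre alone. RNA of both genotypes was hybridized to the same two-colour array, with WT in Cy3 and *Gde5* skKO in Cy5 on array 1 and the dyes swapped on array 2. The series text names 5 mice of each genotype. It does not mention pooling, nor state that the RNA on array 2 was the RNA of array 1. The arrays were therefore treated as 2 hybridizations, and errors and calls cover the spread within an array only, not that between mice. The study describes microarrays of muscle taken after a glucose injection and further expression data under fasting, and the labels do not say which of these conditions the arrays here hold.

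Each array had 43379 spots that are not controls, of which 686 on array 1 and 830 on array 2 carried outlier marks and were left out. Depending on the channel, 44.5% to 53.2% of the others exceeded background clearly, and no spot was saturated. Ratios are log2 values of *Gde5* skKO over WT, from the log ratio of each spot after background subtraction and dye correction. The scanner software's error model attaches an error to each spot's ratio, and the error printed after a ratio is 1 SE by that model. A gene was read from its brightest probe, by the mean log2 signal over both genotypes and both arrays, and was called higher or lower when the model's p-value was under 0.05 on both arrays with the same direction. Of 13290 genes tested, 1.66% were called higher and 1.81% lower, and 1.68% met the same threshold in the dye direction, with opposite signs in the genotype ratio. The median mean ratio was 0.02, and 95% of genes lay between -0.53 and 0.55. For the deleted gene, 3 of its 4 probes had ratios from -3.29 to -2.59. The other probe, elsewhere in the gene, had -0.05 and -0.47. It stands for the gene because its mean over both genotypes was the highest, although its WT signals of 6917 and 7610 lay below the 13034 to 17840 of a pair of the others, and where the probes lie relative to the floxed exon was not determined.

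Myostatin is a secreted TGF-beta family ligand made by muscle fibres that restrains muscle growth. It is cleaved from a precursor, binds the activin type II receptors ACVR2A and ACVR2B, and signals through SMAD2 and SMAD3, and activin A, a dimer of the Inhba product, uses the same receptors. Follistatin binds both ligands and keeps them from the receptor. IGF1 and IGF2 act in the other direction, through the IGF1 receptor and Akt, and IGF binding proteins hold them outside the cell. IGFBP5 is made by muscle cells as they differentiate, and Igf2 is imprinted and shares its locus with the noncoding RNA gene H19.

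The sequences before the start of the 4 called members, Mstn, Igf1, Igf2 and Igfbp5, are shown because these genes carry the differences below. They are the 250 bases before the RefSeq start on GRCm38.p6, on the gene's strand from 5′ to 3′, and the bases after that start are left out. The windows are chr1:53061390-53061639 (plus strand) for Mstn, chr10:87860861-87861110 (plus) for Igf1, chr7:142657497-142657746 (minus) for Igf2 and chr1:72874866-72875115 (minus) for Igfbp5. Igf2 has 4 starts in the table, of which the one nearest the gene's end is shown. Capitals mark E-box letters (CANNTG, where N is any base, the same on both strands) and TATAAA (searched on both strands).
Mstn: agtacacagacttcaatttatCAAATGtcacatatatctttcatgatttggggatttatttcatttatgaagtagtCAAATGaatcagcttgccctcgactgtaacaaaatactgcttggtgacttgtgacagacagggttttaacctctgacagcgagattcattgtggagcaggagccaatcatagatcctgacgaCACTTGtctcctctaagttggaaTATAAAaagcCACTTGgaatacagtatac
Igf1: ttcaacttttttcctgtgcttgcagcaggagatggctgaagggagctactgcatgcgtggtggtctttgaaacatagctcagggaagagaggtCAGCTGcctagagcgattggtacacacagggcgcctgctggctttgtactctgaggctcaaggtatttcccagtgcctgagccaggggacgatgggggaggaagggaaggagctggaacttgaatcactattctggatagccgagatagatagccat
Igf2: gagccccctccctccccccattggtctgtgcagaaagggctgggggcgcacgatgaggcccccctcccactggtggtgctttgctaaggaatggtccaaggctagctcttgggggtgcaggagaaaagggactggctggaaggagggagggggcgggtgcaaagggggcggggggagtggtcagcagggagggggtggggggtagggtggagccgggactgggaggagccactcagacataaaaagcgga
Igfbp5: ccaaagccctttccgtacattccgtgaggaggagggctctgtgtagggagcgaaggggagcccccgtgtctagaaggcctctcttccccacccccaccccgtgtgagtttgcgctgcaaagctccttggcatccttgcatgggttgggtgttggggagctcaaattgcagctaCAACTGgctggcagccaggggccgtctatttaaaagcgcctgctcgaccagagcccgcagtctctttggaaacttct

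The Mstn window held 4 E-box matches, the nearest 14 to 19 bases before the start, and 1 TATAAA match 24 to 29 bases before it. Igf1 and Igfbp5 had 1 E-box match each, and the Igf2 window shown had none, while its furthest upstream start had 2. Among 32841 promoter windows of the same length, 66.2% held at least 1 E-box match, 3.84% held 4 or more, and 12.4% held TATAAA. E-boxes are the letters bound by MyoD and other bHLH factors. No member window held GTAAACA, the letters of a forkhead site, on either strand, against 3.17% of all windows. GC content was 38.4% for Mstn, 52.8% for Igf1, 58.8% for Igfbp5 and 66.0% for the Igf2 window shown. These matches describe the letters of the windows, and binding was not measured. Of the other members, Inhba, Acvr2b, Fstl1, Gdf15 and Igfbp4 have windows in the table, and Fst is named only.

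Among the 8 genes tested, Igf2 was called higher and Mstn, Igf1 and Igfbp5 lower in *Gde5* skKO muscle, and Acvr2b, Fst, Fstl1 and Inhba were not called. Over all genes tested the shares called were 1.66% higher and 1.81% lower. Igf1 and Igf2 are read from repeated spots, and of the 124 tested genes read that way 22.6% were called in either direction. The median ratio of the 8 genes was -0.26, against 0.02 over all genes. The ratio was below 0 on both arrays for 7 of the 8, as for 25.1% of all genes, and above 0 on both for Igf2, as for 29.3%. Both *Gde5* skKO signals lay below both WT signals for those 7 genes, as for 17.7% of all genes, and above them for Igf2, as for 21.2%. No member met the threshold in the dye direction. The members were chosen with earlier results of these data known, so setting them beside all genes is not a test of the pathway.

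**Figure D1:**
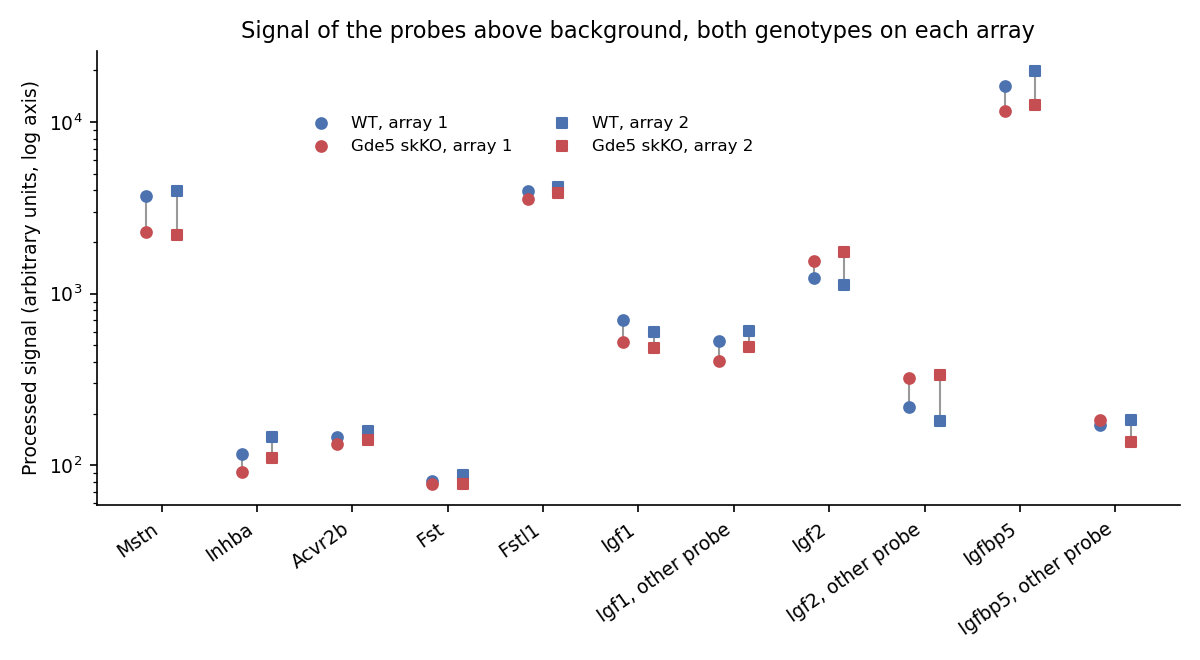
Processed signal of the 11 probes above background, in arbitrary units on a log axis, with WT in blue and *Gde5* skKO in red, circles for array 1, squares for array 2 and a line joining the genotypes of an array. WT lies above *Gde5* skKO on both arrays for every gene's brightest probe except that of Igf2, and heights of different probes are not comparable.

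Mstn had the lowest ratio of the 8 genes. Its probe, at chr1:53012183-53012242 on the plus strand of mm8, had a signal of 3698 in WT and 2288 in *Gde5* skKO on array 1. On array 2 the signals were 3974 in WT and 2186 in *Gde5* skKO. The genotypes did not overlap, and the values of a genotype on the 2 arrays were closer to each other than to the other genotype. The log2 ratio was -0.69 ± 0.21 on array 1 and -0.86 ± 0.22 on array 2, a mean of -0.78 ± 0.12 (SD, 2 arrays), or 1.71-fold lower. Of all genes tested, 1.09% had a mean ratio as low or lower. With limma's normexp and loess ratios the mean was -0.70 ± 0.11 (SE). For Mstn, limma's moderated test across all genes gave an adjusted p of 0.0185. That test, here and below, rests on the spread between the 2 arrays, which is not the spread between mice. In RNA of whole muscle, fewer cells of a type and less RNA per cell cannot be told apart.

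The other TGF-beta family ligands gave no call. Inhba, which encodes the activin A subunit, was read at chr13:15817688-15817747 (mm8, plus strand). Its signals were 116 and 147 in WT and 91.3 and 110 in *Gde5* skKO on arrays 1 and 2. The ratios were -0.35 ± 0.26 and -0.41 ± 0.27, with a mean of -0.38 ± 0.04 (SD, 2 arrays), and neither array passed the threshold. The mean moved to -0.09 with limma's normexp and loess ratios and to -0.14 with loess and no background correction. Gdf15, a stress-induced circulating ligand whose receptor lies in the hindbrain, was not well above background in any channel of chr8:73558561-73558620 (minus strand), at 23.5 and 17.2 in WT and 20.1 and 7.04 in *Gde5* skKO. No fold is given for it.

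The receptor gene and the secreted proteins Fst and Fstl1 were not called, with ratios from -0.17 to -0.05. Acvr2b, the type II receptor for myostatin and activins, had signals of 145 and 158 in WT and 132 and 141 in *Gde5* skKO, with ratios of -0.13 and -0.17. Fst, which encodes follistatin, had 80.8 and 87.2 in WT and 77.8 and 77.4 in *Gde5* skKO, with ratios of -0.05 and -0.17. Fstl1, a secreted glycoprotein of the follistatin-like group, had 3957 and 4205 in WT and 3548 and 3882 in *Gde5* skKO, with ratios of -0.16 and -0.12. In none of the 3 did the ratio exceed the error of its array. That error was 0.26 and 0.27 for Acvr2b, 0.27 and 0.29 for Fst and 0.20 and 0.20 for Fstl1. With limma's normexp and loess ratios Acvr2b was at 0.04 on array 1 and -0.10 on array 2. With loess and no background correction it was at 0.02 and -0.09. The normexp and loess means of the 3 genes were -0.03 for Acvr2b, -0.02 for Fst and -0.13 for Fstl1. Their probes are annotated on mm8 at chr9:119277251-119278606, chr13:115575362-115576034 (minus strand) and chr16:37754746-37754805. The first 2 spans are longer than a probe, at 1356 and 673 bases, so these probes are annotated in pieces across the gene. The array annotation names no exon or UTR for any probe.

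**Figure D2:**
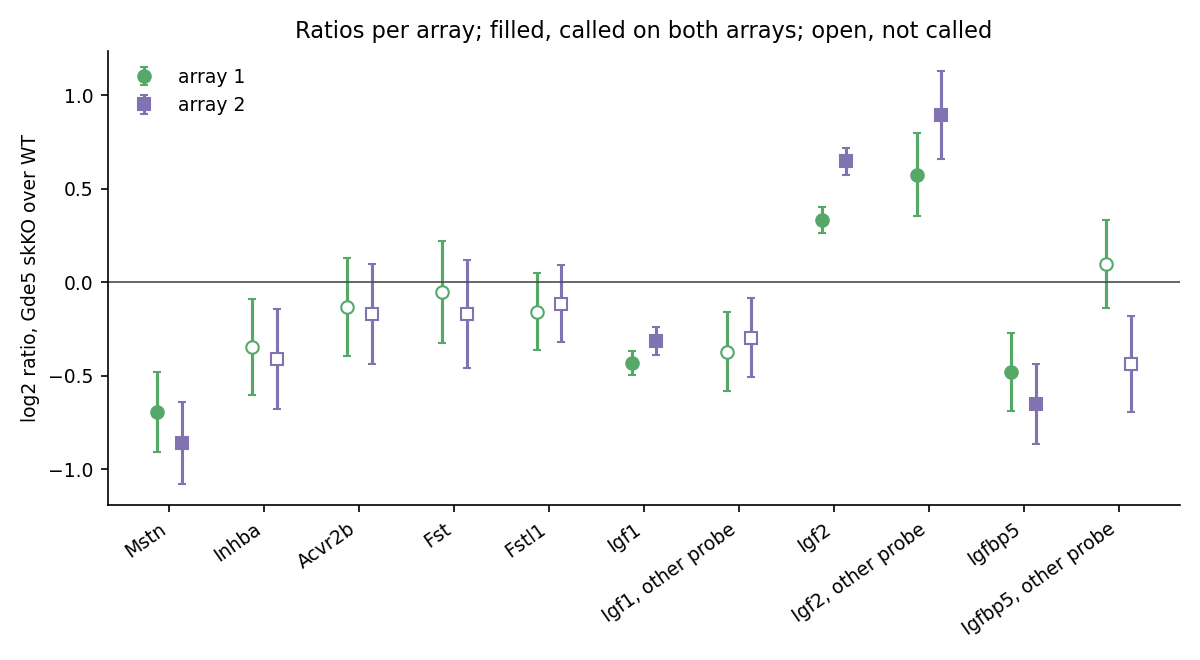
log2 ratio of *Gde5* skKO over WT for the same 11 probes, with array 1 as green circles and array 2 as purple squares, bars for 1 error of the error model, filled points for called probes and open points for the rest. Mstn, the brightest probes of Igf1 and Igfbp5 and both Igf2 probes are filled, and the other Igfbp5 probe lies on either side of 0.

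Igf1 and Igf2 moved in opposite directions. Both are read by probes printed in 10 spots, and the error of their mean ratio is small, so a given ratio passes the threshold more easily than in a gene read from a single spot. Among the 124 tested genes with several spots, 28 were called, which is 22.6%, and 16 met the threshold in the dye direction.

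Igf1, the growth factor made by liver and muscle in response to growth hormone, was read at chr10:87360570-87360629 (mm8, plus strand). On array 1 its 10 spots had WT signals from 662 to 789 (median 701) and *Gde5* skKO signals from 483 to 553 (median 526). On array 2 the 8 spots left had 480 to 665 (median 615) in WT and 386 to 570 (median 487) in *Gde5* skKO. The genotypes did not overlap on array 1 and did on array 2, although every spot's own ratio was below 0. The mean ratio was -0.43 ± 0.07 on array 1 and -0.32 ± 0.07 on array 2, with SDs over spots of 0.07 and 0.09. The mean of both was -0.37 ± 0.08 (SD, 2 arrays), or 1.30-fold lower. Of all genes tested, 5.18% had a mean ratio as low or lower, against 5.03% for Inhba, which was not called. Taken singly, 6 of 10 spots on array 1 and 1 of 8 on array 2 had p under 0.05, and by the median p of the spots Igf1 was not called, a reading under which 6.45% of the genes with several spots were. limma gave -0.25 ± 0.10 (SE), with an unadjusted p of 0.0355 and an adjusted p of 0.50.

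A second Igf1 probe, at chr10:87343472-87343531, had signals of 526 and 604 in WT and 407 and 492 in *Gde5* skKO. Its ratios were -0.37 ± 0.21 and -0.30 ± 0.21, close to those of the repeated probe, but they come from 1 spot and it was not called. The remaining Igf1 probe, at chr10:87292436-87292495, was at background in all channels. Averaging all probes of the gene brings it in, and Igf1 is then at -0.67 and not called.

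Igf2, the fetal growth factor of the pair, was read at chr7:142460185-142460245 (mm8, minus strand). On array 1 its 9 spots had 1135 to 1357 (median 1221) in WT and 1368 to 1624 (median 1566) in *Gde5* skKO. On array 2 its 9 spots had 1013 to 1228 (median 1108) in WT and 1590 to 1975 (median 1756) in *Gde5* skKO. The genotypes did not overlap on either array, and every spot's ratio was above 0. The mean ratio was 0.33 ± 0.07 on array 1 and 0.65 ± 0.07 on array 2, a mean of 0.49 ± 0.22 (SD, 2 arrays), or 1.40-fold higher. The 2 arrays thus differed by more than the spots within either, whose SDs were 0.07 and 0.07. Counted from the lowest mean ratio, Igf2 ranked at percentile 96.5 of all genes tested. Taken singly, 1 of 9 spots on array 1 and 9 of 9 on array 2 had p under 0.05, and by the median p Igf2 was not called either. limma gave 0.44 ± 0.11 (SE), with an unadjusted p of 0.00293 and an adjusted p of 0.151.

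The other Igf2 probe, printed once at chr7:142460600-142460659, was called as well. Its signals were 217 and 180 in WT and 323 and 334 in *Gde5* skKO, and the genotypes did not overlap. The ratios were 0.57 ± 0.22 and 0.89 ± 0.23, with a mean of 0.73 ± 0.23 (SD), or 1.66-fold higher. With limma's normexp and loess ratios this dim probe had 0.35 and 0.39, a mean of 0.37, so its size depends on the background correction. Both Igf2 probes had the larger ratio on array 2.

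**Figure D3:**
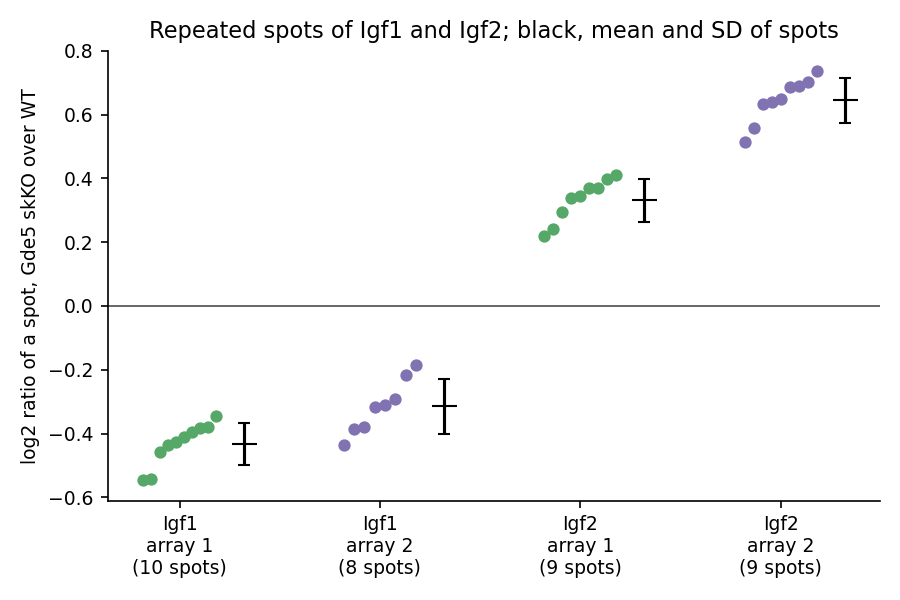
log2 ratio of *Gde5* skKO over WT in each spot of the repeated Igf1 and Igf2 probes, spots ordered by value, green for array 1 and purple for array 2, with the mean and SD of the spots in black. All Igf1 spots lie below 0 and all Igf2 spots above it, and the Igf2 spots of array 2 lie above those of array 1.

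Igfbp5, a binding protein that holds IGFs in the matrix, was lower by its bright probe and not by its dim one. The bright probe, at chr1:72791462-72791521 (mm8, minus strand), had 16188 in WT and 11615 in *Gde5* skKO on array 1. On array 2 it had 19733 in WT and 12559 in *Gde5* skKO. The genotypes did not overlap. The ratios were -0.48 ± 0.21 and -0.65 ± 0.21, with a mean of -0.57 ± 0.12 (SD, 2 arrays), or 1.48-fold lower. Of all genes tested, 2.25% had a mean ratio as low or lower. limma gave -0.59 ± 0.10 (SE), with an adjusted p of 0.0317. The dim probe, at chr1:72793999-72794058, had 171 and 184 in WT and 183 and 136 in *Gde5* skKO, which overlap, and its ratios of 0.10 ± 0.24 and -0.44 ± 0.25 had opposite signs. Averaging both probes gave -0.37, which was not called.

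Igfbp4, another IGF binding protein, had no level to compare. Its brighter probe, at chr11:98868110-98868169 (mm8, plus strand), had 50.6 and 38.3 in WT and 37.8 and 44.04 in *Gde5* skKO, and exceeded background clearly for *Gde5* skKO on array 1 alone. The other probe, at chr11:98864367-98864426, lay at background in every channel.

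The other genes of these pathways were taken from a list of 91 genes without the members, of which 89 were on the arrays and 59 were tested. H19 was called higher, Wfikkn2 and Id1 were called lower, and 56 were not called. The shares over all genes tested were 1.66% and 1.81%, and this list too was chosen with earlier results known. The median ratio of the 59 genes was -0.09, with 22 below 0 on both arrays and 9 above. A further 22 genes were at background in all channels of both arrays, Gdf11, the closest relative of Mstn, among them.

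**Figure D4:**
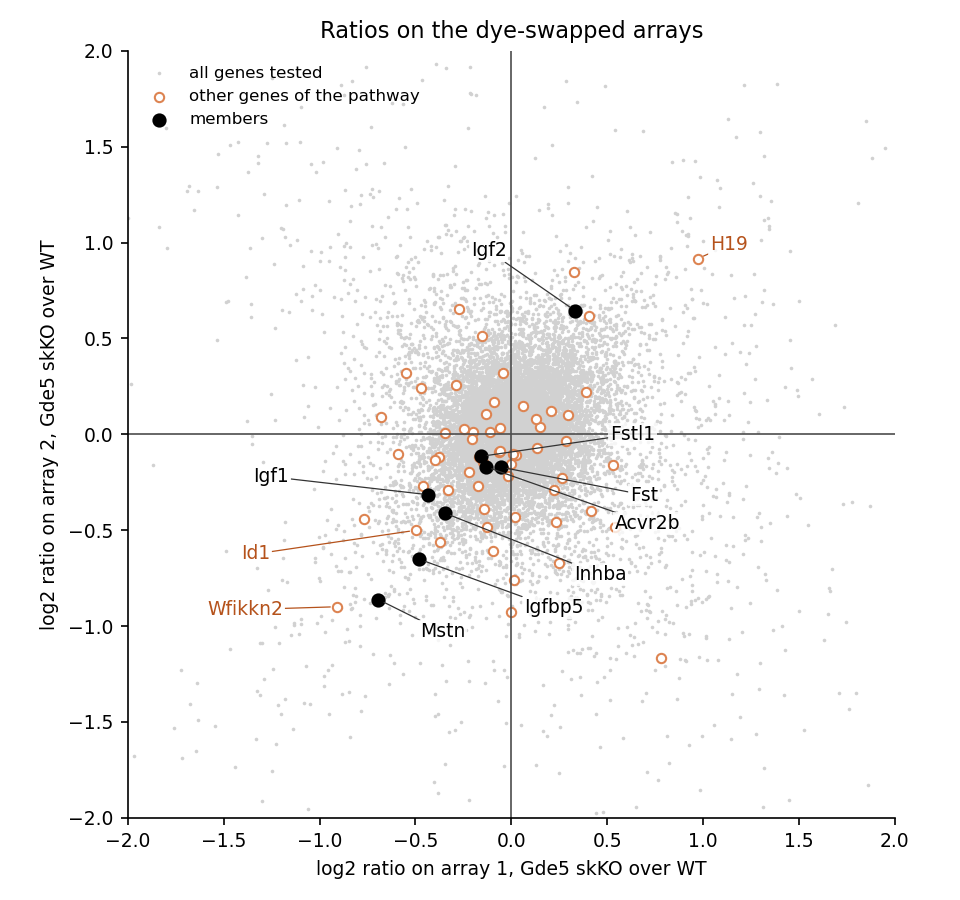
Ratio on array 1 (horizontal) and on array 2 (vertical), both log2 of *Gde5* skKO over WT, for all 13290 genes tested (grey, 104 outside the axes), the 59 other pathway genes (orange circles) and the 8 members (black). Mstn, Igfbp5, Igf1, Wfikkn2 and Id1 lie in the lower left and Igf2 and H19 in the upper right, while Smad7 is the orange circle furthest into the lower right.

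H19, the noncoding RNA gene beside Igf2, had the highest ratio on the list. Its brightest probe, at chr7:142385254-142385313 (mm8, minus strand), had 5405 and 6848 in WT and 10607 and 12924 in *Gde5* skKO. The genotypes did not overlap. The ratios were 0.97 ± 0.22 and 0.92 ± 0.22, or 1.92-fold higher, and limma gave 0.92 ± 0.10 (SE) with an adjusted p of 0.00450. A second probe, at chr7:142385503-142385650, had ratios of 1.06 and 1.09. The nearest H19 and Igf2 probes lie 74534 bases apart on mm8, and all 4 probes of the pair were called higher.

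Wfikkn2, which encodes a secreted protein that binds myostatin and GDF11, had 108 and 104 in WT and 57.5 and 55.8 in *Gde5* skKO. Its ratios were -0.91 ± 0.29 and -0.90 ± 0.32, or 1.87-fold lower. With limma's normexp and loess ratios the mean was -0.24, with an adjusted p of 0.519, and its other 2 probes were at background in all channels. Id1, a target gene of BMP signals through SMAD1 and SMAD5, had 1350 and 1134 in WT and 955 and 801 in *Gde5* skKO. Its ratios were -0.50 ± 0.21 and -0.50 ± 0.21, or 1.41-fold lower, and limma gave -0.43 with an adjusted p of 0.140.

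By role, none of the 9 tested ligands was called, from Gdf10 at a mean ratio of -0.61 to Inha at 0.31. Gdf10 had -0.77 on array 1, where it passed, and -0.44 on array 2. The 7 tested receptors and co-receptors had a median of -0.21 and no call, and their means ran from -0.47 for Acvr1b, a type I receptor for activins and myostatin, to -0.04 for Acvrl1. The ratios of Acvr1b were -0.37 and, with the threshold passed, -0.56 on array 2. Of 11 extracellular inhibitors, 1 was called, Wfikkn2, and the highest mean was 0.59 for Chrdl2, a BMP antagonist, with 0.33 and 0.85, past it on neither. The 7 activating proteases and latency proteins ranged from -0.37 for Ltbp1, which anchors latent TGF-beta in the matrix, to 0.09 for Bmp1, a protease that frees myostatin from its propeptide. None was called.

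Of the 13 tested Smad genes and Smad regulators, Id1 was called and had the lowest mean, and Smad3, a mediator of the myostatin signal, had the highest at 0.10. Smad7, the inhibitory Smad, had 0.78 on array 1 and -1.17 on array 2, and met the threshold in the dye direction. Neither IGF receptor was called, at -0.08 for Igf1r and 0.02 for Igf2r. Among the 6 tested IGF binding proteins, carriers and Igf2 partners, H19 was highest and Igfbp3 lowest, at 0.25 and -0.67, of which array 2 alone passed. Of the 4 tested regulators of IGF1 and IGFBP proteases, Ghr, the growth hormone receptor, was lowest at -0.46 and -0.27, of which array 1 alone passed, and Stat5a, which carries the growth hormone signal to Igf1, was highest at 0.03. None of the 4 was called.

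**Figure D5:**
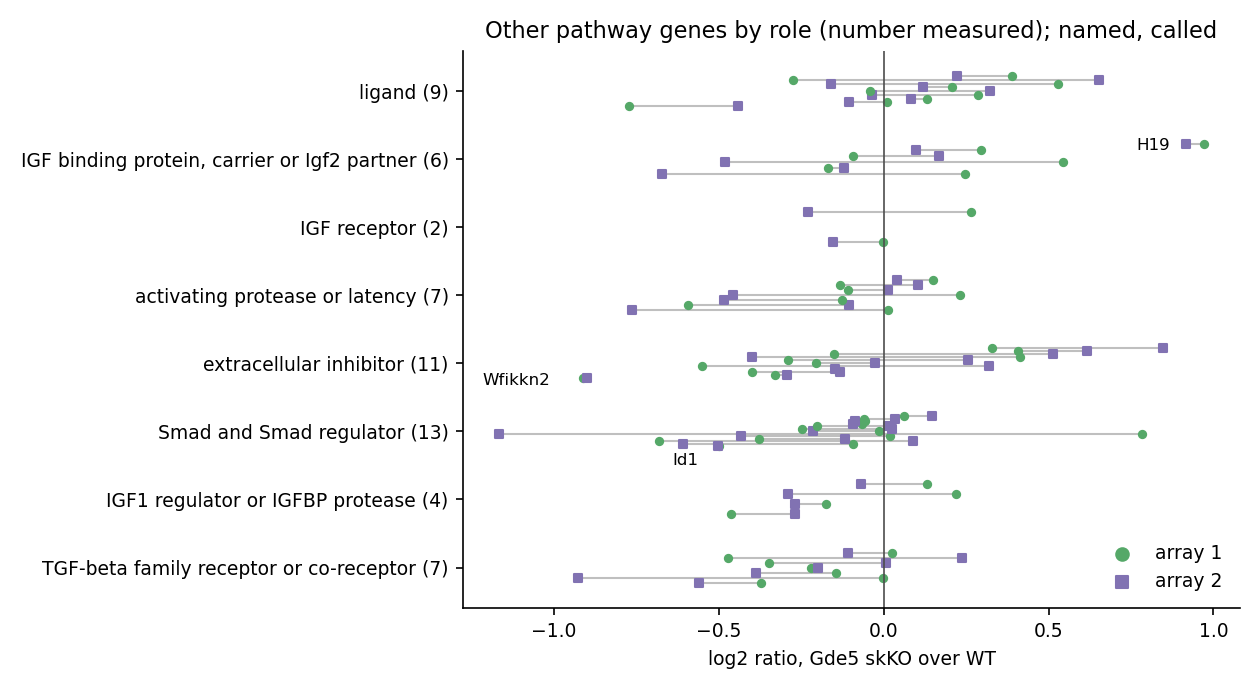
log2 ratio of *Gde5* skKO over WT for the 59 other pathway genes, grouped by role with the number tested, with array 1 as green circles, array 2 as purple squares and a line between them. The 3 called genes are named, and long lines mark genes whose arrays disagree, of which Smad7 is the longest.

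Markers of the cells in the sample were read beside the members, and summed signals are over the tested markers of a list. Of 12 skeletal muscle markers 9 were on the arrays by name, Ckm, Acta1 and Myh4 among them, and all 9 were tested, with no call, a median of -0.02 and a summed signal of 536551 to 578800 in WT and 538798 to 581831 in *Gde5* skKO. Satellite cell markers had no call in 6, a median of 0.11 and sums of 1844 to 2089 and 1903 to 2218, with Myf5 at background. Fibroblast and tendon markers had no call in 12, a median of -0.10 and sums of 100525 to 110883 in WT and 98334 to 99891 in *Gde5* skKO.

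Several adipocyte and liver markers were also called lower. Of 9 adipocyte markers tested, 5 were called lower, with ratios of -0.97 and -1.03 for Adipoq and means of -0.90 for Cfd, -0.83 for Retn, -0.70 for Cidec and -0.69 for Plin1. Fabp4 at 0.05, Lpl at 0.15 and Pparg at -0.01 were not called, and Fabp4 and Lpl had WT signals of 17746 to 37187, above those of the 5 called lower. Car3, also expressed in muscle fibres, was called higher at 0.93. Lep was at background. The median was -0.69, while the summed signal with Car3 was 83322 to 86136 in WT and 101466 to 107128 in *Gde5* skKO. Without Car3 it was 62091 to 64011 in WT and 61134 to 64575 in *Gde5* skKO. Most of the sum without Car3 came from Fabp4 and Lpl, so it says little on the 5 called lower. Of 7 liver markers tested, Ahsg at -1.09, Mup1 at -0.97 and Hp at -0.80 were called lower and Apoh at 0.81 higher. The liver sums were 3067 to 3136 in WT and 1820 to 1916 in *Gde5* skKO, and Apoa1, Apoa2 and Apob were at background. Mup1 alone made up 2008 to 2031 of the WT sums and 1021 to 1042 of the *Gde5* skKO sums. The sums therefore say little on the other liver markers. With limma's normexp and loess ratios the medians of the tested markers were -0.33 for adipocytes and -0.21 for liver. The part of these markers in the ratios of Mstn, Igf1 and Igfbp5 was not tested.

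Macrophage and leukocyte markers had no call in 7 and a median of -0.11, with sums of 8762 to 8787 in WT and 7054 to 8101 in *Gde5* skKO, and Itgam was at background. Nerve and Schwann cell markers had no call in 5, a median of -0.06, and sums of 1920 to 1958 and 1828 to 1866. Of 6 endothelial markers, Kdr at 0.42 and Pecam1 at 0.22 were called higher, both from probes in 10 spots. By the median p of the spots Kdr was called and Pecam1 was not. limma gave 0.39 for Kdr and 0.07 for Pecam1, with adjusted p of 0.178 and 0.998. The endothelial list had a median of -0.11 and sums of 22670 to 23439 in WT and 21241 to 23923 in *Gde5* skKO. Dcn and Chrdl2 stand both in a marker list and in the pathway list.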

How the data were processed

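Expression was measured in GAS muscle on 2 dye-swapped Agilent 44K whole mouse genome arrays, which lie on 1 slide, so slide could not be a block. The authors used Feature Extraction (9.5.3.1 in the file header). Its deposited log10 ratio is Cy5 over Cy3 per spot, background-subtracted, detrended and corrected for dye. The deposited p-value and ratio error come from its error model. The deposited intensity columns hold each channel before and after processing. The series table holds the same log10 ratio, rounded and unturned. The labels name QIAzol for RNA and the methods another kit.

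Here each ratio was put on the log2 scale with WT as the denominator. Spots of a probe were averaged, with a normal p from their combined error. Probes were named through RefSeq (24362 by accession, 6301 by symbol, 2418 by synonym, 8078 as listed). Coordinates of probes are mm8 from the array annotation, and no mm8 gene models were used. Upstream windows come from RefSeq on GRCm38.p6. The moderated test used normexp with an offset of 50, loess, and Benjamini-Hochberg adjustment in limma 3.58.1 under R 4.3.3, where 11 spots of array 1 beside debris took the array's medians. Other steps ran in Python 3.11.15 with pandas 2.3.3, numpy 2.4.6 and scipy 1.17.1, and figures in matplotlib 3.10.9. The call rule and the moderated test were tried on simulated ratios, with noise scaled by the error model's own errors. The remaining steps were not tried on simulated data. The members and lists were chosen with earlier results of these data known. All members were named, with the called genes of the pathway list, the highest and lowest of each role, and the called markers. Alternatives were other background corrections, files, probe choices, filters, thresholds and tests, and each array alone. Precision is limited by there being 2 arrays.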

Additional observations from a re-analysis of the deposited data

How the results depend on the processing

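No member's mean ratio changed sign under the 19 alternatives. On array 1 taken by itself, Acvr2b moved above 0 with limma's normexp and loess ratios and with loess and no background correction. Mstn kept its call in 17, with mean ratios from -0.86 to -0.69, Igf2 in 15 (0.33 to 0.65), Igf1 in 13 (-0.67 to -0.25) and Igfbp5 in 13 (-0.65 to -0.37). Acvr2b, Fst, Fstl1 and Inhba were called in none. The settings with other background corrections or the series table replaced the ratio but kept the scanner software's p. There a call could be lost only if a ratio changed sign, so its being kept says little. Mstn has 1 probe of 1 spot, so settings on probe choice and repeated spots could not change its ratio.

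Members called higher went from 1 to 0 with limma's adjusted p, with the methods' t-test (Student's test of the log2 channel values) after adjustment, with a mean ratio of at least 1 besides the p, and with the median p of a probe's spots, the last chosen after seeing the data. Members called lower went from 3 to 1 with the mean over all probes and with the methods' t-test unadjusted. They went to 0 with that test adjusted and with the ratio of at least 1. They were 2 at a p under 0.01, with p adjusted within each array, with limma's adjusted p and with the median p. With either array alone, 1 was higher and 3 lower.

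Among all genes, 221 were higher, 240 lower and 223 in the dye direction. At a p under 0.01 there were 114, 134 and 82, and with p adjusted within each array 62, 84 and 19. limma gave 572 higher and 578 lower unadjusted, and 49 and 78 adjusted. The methods' t-test gave 603 and 554 unadjusted, and 0 and 0 adjusted. With a ratio of at least 1 there were 38, 63 and 124. Genes in the dye direction were 377 without a filter on dim probes and 68 with signal required in both channels, where 206 genes were higher and 225 lower. A single array called 944 to 976 higher and 735 to 920 lower.

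Of the pathway genes, 1 was higher and 2 were lower. With a ratio of at least 1 and with the methods' t-test adjusted there were 0 and 0. Lower genes were 1 at p under 0.01, 0 with p adjusted within each array, and 4 unadjusted and 0 adjusted in limma. On 1 array alone, 1 to 3 were higher and 6 to 8 lower.

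The median of the muscle markers was 0.03 with limma's normexp and loess ratios and with loess alone, and that of the macrophage markers was 0.12 with the mean over all probes. No other marker median changed sign.

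Keeping spots with a high local background changed nothing, because each such spot also had an outlier mark. The slide was not run as a block, as both arrays share it. Each array's ratio sets both genotypes against each other, so limma's test of these ratios was paired within arrays. The methods' t-test compared the channel values without that pairing. The cause of these changes was not tested. Dim probes limit Inhba, Fst, Acvr2b, Wfikkn2, Gdf15 and Igfbp4.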
